A study of Mus musculus with 12 samples.

Results

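NS-GFP4+ and NS-GFP3+ are neighbouring fractions of LSK cells from bone marrow, and the step between them is the last along 4 fractions sorted by reporter level. The compared samples were taken by their labels, 3 of each fraction, which makes 6 of the 12 samples of the series. All samples came from C57BL/6 mice with the NS-GFP transgene, a reporter in which a segment of the NS promoter drives GFP, and differ in nothing else that the labels name. LSK stands for Lin-, Sca-1+, Kit+, the surface profile of the most immature blood-forming cells. Total RNA of each sorted sample was labelled with Cy3 and read on a 1-colour Agilent array. Every fraction can mix cell types, since the labels name GFP level as the only difference between fractions. They give neither the animals behind a sample nor which end of the numbering is brightest. P-values therefore rest on how far samples of a fraction differ, which can be a technical spread, and directions are given by fraction number.

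As background, LSK cells run from long-lived hematopoietic stem cells, which divide rarely, to multipotent progenitors that have begun to transcribe lymphoid or myeloid genes. Stem cells are known for Procr, Hlf, Mllt3 and Cdkn1c, lymphoid-primed progenitors for Flt3, Dntt and Rag1, and cells turning to the myeloid side for Mpo, Irf8 and Spi1. NS is read here as nucleostemin, the nucleolar GTP-binding protein encoded by Gnl3, which is linked to self-renewal and ribosome biogenesis.

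Values are the log2 signals of the deposited table, in which each sample's median lay at 6.11 to 6.12 and its 75th percentile at 9.18. No background or detection flags came with them, so whether a probe below that median rose above background is unknown. A probe was tested when it exceeded the median in all 3 samples of at least 1 of the 4 fractions, which 20920 of 42022 probes did. Of these, 15026 carry a gene symbol, for 11335 genes. Kit, a marker of the sort, had a mean of 12.93 ± 0.25 (SD, n = 3) for NS-GFP3+ and of 12.90 ± 0.27 (n = 3) for NS-GFP4+, while Pax5 of B cells and Cd8a and Cd3d of T cells lay below 4.40 on average in both. In a bulk sample, fewer cells of a type and less RNA per cell cannot be told apart. The replicate 3 samples stand apart, with deviations from their fraction means that correlated at 0.69 with each other and at -0.33 to -0.61 with those of replicates 1 and 2. Such deviations cancel out within a fraction, so the negative values are in part forced by the positive one. The values of NS-GFP3+ replicate 3 could not be set against its own per-array file, which holds the same numbers as that of NS-GFP2+ replicate 3.

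NS-GFP4+ differed from NS-GFP3+ at 223 probes, 1.07% of those tested (limma, adjusted p under 0.05). The 94 with a higher level in NS-GFP4+ (0.449%) had a median fold of 1.79, and the 129 with a lower level (0.617%) one of 1.71. They name 182 genes, 76 higher and 106 lower, and 34 probes have no gene name here. At least 2-fold differences were seen at 32 higher and 31 lower probes. None of the 223 had overlapping groups, where 16.6% of all tested probes (and 18.3% of genes) do not overlap, and each kept its sign in the 3 pairs of equal replicate number, where 44.2% of all do. The 223 were selected on these same values, and groups without overlap keep their sign in every pair. Neither is therefore separate support for the calls. A fit that blocked on replicate number gave 1057 (5.05%), 526 higher (2.51%) and 531 lower (2.54%), and the 223 were all among them. With replicates 1 and 2 alone, a choice made after seeing the data, it was 585.

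The count depended on single samples. Leaving out replicate 1, 2 or 3 of NS-GFP3+ left 45, 43 or 349 probes, and leaving out those of NS-GFP4+ left 55, 53 or 54. Without samples of the other fractions it was 110, 121 and 279 for NS-GFP1+ replicates 1, 2 and 3, and 122, 130 and 155 for NS-GFP2+ replicates 1, 2 and 3. Scaling on the 8 E1A spike-in spots moved the median difference of all tested probes from -0.01 to -0.20 on the log2 scale and gave 149 probes, 25 higher and 124 lower, of which 78 were among the 223. Mean E1A values were 10.974, 11.246 and 11.218 in NS-GFP3+ and 11.656, 11.14 and 11.215 in NS-GFP4+. These overlapped and were furthest apart in replicate 1. With only the 6 samples in the fit, 19 probes passed, 11 higher and 8 lower.

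**Figure D1:**
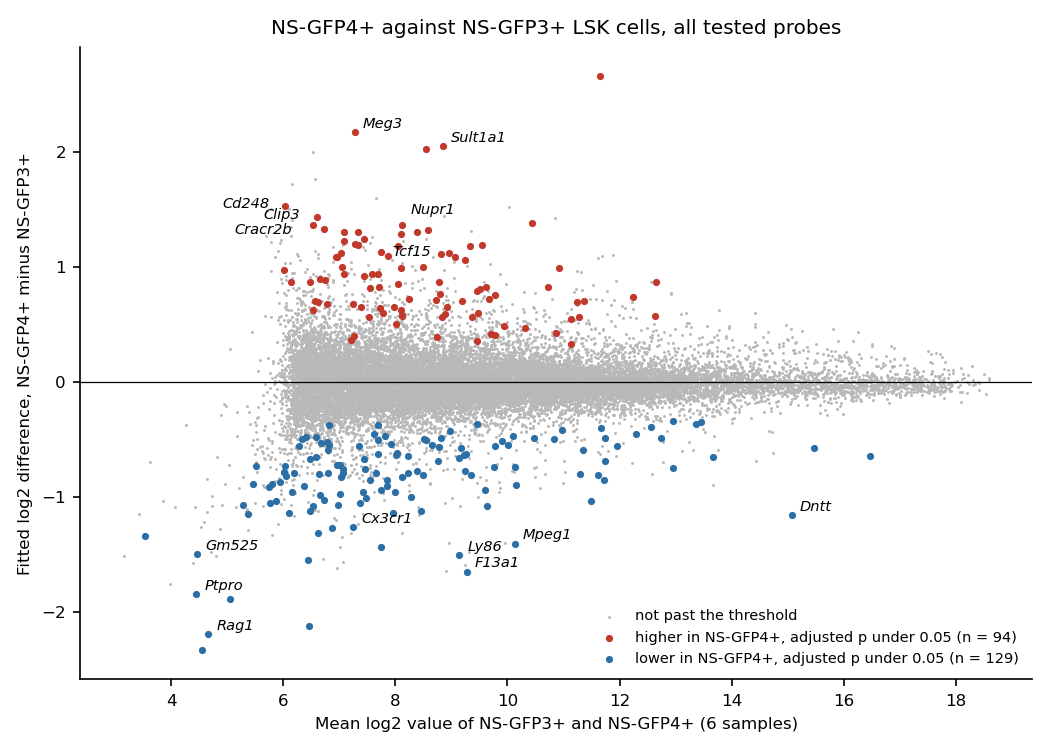
Fitted log2 difference of NS-GFP4+ minus NS-GFP3+ against the mean log2 value of the 6 samples, 1 point per tested probe. Red points are the 94 probes higher and blue points the 129 lower in NS-GFP4+. Rag1, Ptpro and Gm525 lie at the dim end and Dntt at the bright end.

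The stem cell genes that rose were led by Sult1a1, a cytosolic sulfotransferase. Its values were 7.74, 7.86 and 7.86 in NS-GFP3+ and 10.03, 10.03 and 9.58 in NS-GFP4+, with no overlap and with replicate 3 the lowest in NS-GFP4+. The fitted difference was 2.06 ± 0.15 (SE), or 4.16-fold (adjusted p = 0.000745), and another Sult1a1 probe gave 2.03. Cdkn1c, the p57 inhibitor of cyclin-dependent kinases, was at 8.61, 8.61 and 8.88 in NS-GFP3+ and 9.66, 9.78 and 9.88 in NS-GFP4+. It rose 2.10-fold (log2 1.07 ± 0.12, adjusted p = 0.0043), with replicate 3 the highest in both groups.

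Smaller rises were measured for the other stem cell genes past the threshold. Procr, the endothelial protein C receptor used to mark stem cells, went from 10.88 ± 0.15 (SD, n = 3) to 11.59 ± 0.08 (n = 3) and rose 1.63-fold (adjusted p = 0.0135). Mllt3, a chromatin reader known to maintain stem cells, rose 1.66-fold (adjusted p = 0.0043), and Hlf, a leucine zipper transcription factor, rose 1.49-fold (adjusted p = 0.0409). Their groups did not overlap. On the E1A scale the adjusted p was 0.801 for Procr and Hlf, 0.794 for Mllt3 and 0.129 for Cdkn1c, with differences of 0.51, 0.39, 0.54 and 0.88.

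In the list of 36 HSC-enriched genes, 30 were tested, and 5 rose while none fell, where 1.42% of all 11335 tested genes passed, 0.6% higher and 0.82% lower. Its median difference was 0.61, against -0.01 over all tested genes. This list and those below were chosen with earlier results of these data known. Their counts and medians are therefore descriptions and not independent tests. Fgd5 and Gpr183 were below the filter, and the rest of the list was not analysed here. With the replicate block 15 of the 30 rose and Cd34, a glycoprotein more abundant on progenitors than on long-term stem cells, fell, where 6.16% of all tested genes passed, 3.27% higher and 2.88% lower. Over 23 alternatives 2 to 17 members rose. Vwf, the clotting protein of platelet-primed stem cells, had the largest difference in the list after Sult1a1, 1.52 ± 0.45. It passed with the block (adjusted p = 0.0041) and not without it (0.177). Its samples were 9.13, 8.86 and 9.82 in NS-GFP3+ and 10.77, 10.52 and 11.09 in NS-GFP4+, highest in replicate 3 of both groups. Kit differed by -0.03 ± 0.22 and the stem cell genes Meis1 and Hoxa9 by 0.21 ± 0.21 and 0.05 ± 0.26, none past the threshold with or without the block.

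Outside that list, the largest rise of a named gene was that of Meg3, an imprinted long noncoding RNA. It stood at 6.00, 5.52 and 7.03 in NS-GFP3+ and 8.02, 7.87 and 9.19 in NS-GFP4+, with replicate 3 the highest in each group. The difference was 2.18 ± 0.44 (adjusted p = 0.0468), and the adjusted p ran from 0.000442 to 0.196 over 22 alternatives, above 0.05 in 12. Meg3 and Grb10, like Cd248, Clip3 and Cracr2b among the rises given next, passed the filter only through NS-GFP4+, as did 8 of the 94 higher probes, so these sizes rest on signal that did not pass the filter in NS-GFP3+. Grb10, an imprinted adaptor of the insulin receptor, rose from 5.94, 6.66 and 6.67 to 7.88, 7.78 and 7.53, by 2.47-fold (adjusted p = 0.0167).

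The other rises among the 12 largest are of varied function. Transcription and stress were represented by Tcf15, a bHLH factor (1.29, adjusted p = 0.0142), and Nupr1, a small nuclear protein induced by stress (1.37, adjusted p = 0.0061). Cd248, the membrane protein endosialin of pericytes and fibroblasts, rose by 1.53 from 5.09, 5.18 and 5.52 to 6.53, 6.89 and 6.96, crossing the sample median. Clip3, a microtubule-binding protein (1.44), and Cracr2b, a regulator of calcium entry (1.37), rose across the same level, each with at least 1 NS-GFP3+ sample below it. Aebp1, Wfdc2 and Kazald1, which encode secreted proteins, rose by 1.31, 1.31 and 1.25. Gm11559, to which no role is given here, rose by 1.32.

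**Figure D2:**
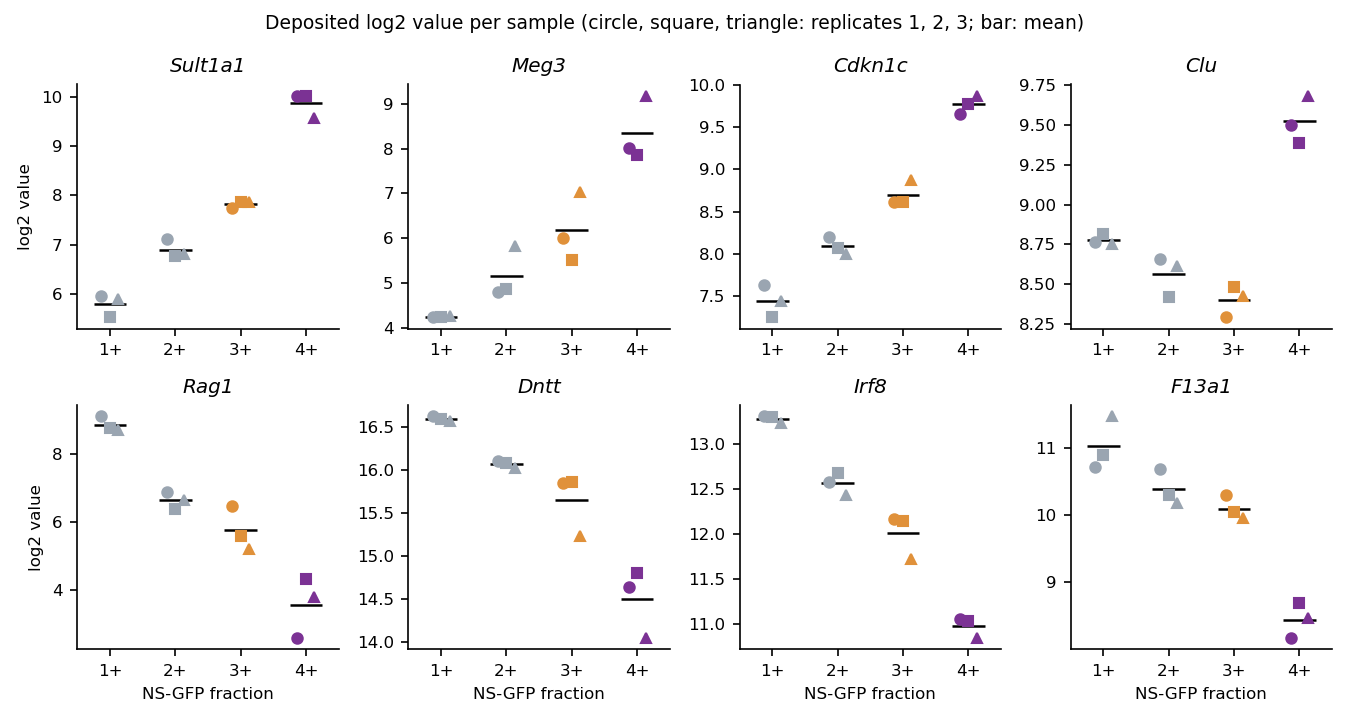
Deposited log2 value of 8 genes in each of the 12 samples, by NS-GFP fraction. Symbols mark replicates 1 to 3 and bars the mean of 3 samples. NS-GFP4+ does not overlap NS-GFP3+ for any of the 8 genes, and Clu is the gene whose fitted differences were negative at both earlier steps and positive at the last.

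Among lymphoid genes, Dntt, the terminal transferase that adds nucleotides at antigen receptor joints, fell from a high level. It was at 15.86, 15.87 and 15.23 in NS-GFP3+ and 14.64, 14.80 and 14.05 in NS-GFP4+, lowest in replicate 3 of both groups. The fall was 2.23-fold (log2 -1.16 ± 0.20, adjusted p = 0.031), and the adjusted p was above 0.05 in 10 of 23 alternatives, reaching 0.166. Rag1, the recombinase of the same process, was at 6.46, 5.58 and 5.21 in NS-GFP3+ and 2.58, 4.31 and 3.78 in NS-GFP4+. It fell by 2.19 ± 0.41 on the log2 scale (adjusted p = 0.0383). However, all NS-GFP4+ samples and replicates 2 and 3 of NS-GFP3+ lay below the sample median. The adjusted p was above 0.05 in 11 of 21 alternatives, reaching 0.151. Ccr9, a homing receptor for the thymus and gut, fell from 7.03 ± 0.29 (SD, n = 3) to 5.91 ± 0.19 (n = 3), by 2.18-fold (adjusted p = 0.0105). Its probe did not pass the filter through NS-GFP4+.

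The chromatin organiser Satb1 fell 1.75-fold (adjusted p = 0.0341, above 0.05 in 11 of 23 alternatives), and the transcriptional cofactor Mn1 fell 1.49-fold (adjusted p = 0.0341). These 5 are the members that fell among 13 tested of 15 listed multipotent progenitor and lymphoid-primed genes, and none rose. The median of the list was -0.59. With the block 9 fell and Ltb, the lymphotoxin beta subunit, rose, and over 23 alternatives 0 to 11 fell. Of all tested genes, 0.82% fell, and 2.88% with the block. Flt3, the cytokine receptor of lymphoid-primed progenitors, was 14.19, 14.17 and 13.82 in NS-GFP3+ and 13.65, 13.49 and 13.27 in NS-GFP4+, without overlap. Its difference of -0.59 ± 0.12 had an adjusted p of 0.051, and 0.0027 with the block. Il7r, the receptor chain for interleukin 7, differed by -1.35 ± 0.32 (adjusted p = 0.0907, with the block 0.0016).

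B cell genes had a similar sign. Of 8 listed, 6 were tested, all with negative differences and a median of -0.75. The list fell more before this step, with medians of -2.25 from NS-GFP1+ to NS-GFP2+ and -0.86 from NS-GFP2+ to NS-GFP3+. By contrast, the HSC-enriched, lymphoid-primed and myeloid medians were largest in size between NS-GFP3+ and NS-GFP4+. Blnk, the adaptor of the B cell receptor, fell from 10.17 ± 0.26 (SD, n = 3) to 9.09 ± 0.12 (n = 3), by 2.11-fold (adjusted p = 0.0052). With the block Vpreb1 and Igll1, the surrogate light chain genes, passed too. Of all tested genes, 0.82% fell, and 2.88% with the block.

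Among myeloid genes, Irf8, the factor of monocyte and dendritic cell fate, was at 12.16, 12.15 and 11.72 in NS-GFP3+ and 11.06, 11.04 and 10.84 in NS-GFP4+. It fell 2.04-fold (log2 -1.03 ± 0.12, adjusted p = 0.0053), and its groups did not overlap. Spi1, which encodes the ETS family factor PU.1, fell 1.45-fold from 8.22, 8.19 and 8.14 to 7.68, 7.50 and 7.76 (adjusted p = 0.0288). Mpo, the peroxidase of neutrophil granules, fell 1.56-fold from 16.96, 16.80 and 16.61 to 16.23, 16.25 and 15.97 (adjusted p = 0.035). The groups of both did not overlap.

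These 3 are the myeloid genes that fell among 15 tested of 16 listed, none rose, and the median was -0.62. With the block 9 fell, and over 23 alternatives 0 to 9. Of all tested genes, 0.82% fell, and 2.88% with the block. Csf1r, the receptor for macrophage colony-stimulating factor, differed by -0.88 ± 0.23 at its brightest probe (adjusted p = 0.118) and by -1.31 at another, which just passed (adjusted p = 0.05). The latter probe did not pass the filter through NS-GFP4+. A Csf1r probe of opposite sign was also tested, as for Itgam and Milr1. S100a8 and S100a9, neutrophil proteins, differed by -0.60 ± 0.68 and -0.62 ± 0.62 and Csf3r, the receptor for granulocyte colony-stimulating factor, by 0.21 ± 0.09, none past the threshold.

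Several of the 12 largest falls encode proteins known from macrophages and monocytes. F13a1, the A subunit of clotting factor XIII, fell 3.14-fold from 10.29, 10.05 and 9.95 to 8.17, 8.70 and 8.47 (adjusted p = 0.0081). With 1 probe a gene, its fall ranked the third, and both genes above it, Rag1 and Ptpro, were dimmer. Ly86, the MD-1 partner of the receptor RP105, fell 2.84-fold (adjusted p = 0.02), and Mpeg1, the pore-forming protein perforin-2, 2.65-fold (adjusted p = 0.0048). Cx3cr1, the fractalkine receptor, fell by 1.26 at its brighter probe and by 2.33 at its dimmer one. Ifi209, of an interferon-inducible family, fell by 1.27. The Ifi209 probe and the dimmer Cx3cr1 probe did not pass the filter through NS-GFP4+.

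The remaining falls by the same rule were Ptpro, a receptor tyrosine phosphatase (3.59-fold), Gm525 (2.82-fold), Chst3, a chondroitin sulfotransferase (2.53-fold), Rtn4rl1, a relative of the Nogo receptor (2.21-fold), and Kcng1, a potassium channel subunit (2.21-fold). Ptpro, Gm525, Chst3 and Rtn4rl1 lay below the sample median in all NS-GFP4+ samples. The NS-GFP3+ samples were below it too for Ptpro (5.82, 4.63 and 5.66), Gm525 (5.83, 5.06 and 4.74) and Chst3 (4.03, 4.02 and 4.54). For Rtn4rl1 they lay on both sides of it (5.90, 6.31 and 5.62). These probes passed the filter through neither compared fraction, so these sizes rest on dim signal on both sides. Kcng1 lay above the sample median, at 8.67, 8.81 and 8.10 in NS-GFP3+ and 7.44, 7.56 and 7.15 in NS-GFP4+. Of the 129 lower probes, 35 did not pass the filter through NS-GFP4+.

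A promoter entry was searched for 27 of 36 named genes, and 5 hold the motif below, F13a1, Mpo, Sult1a1, Satb1 and Gm11559. The first 3 are shown, each with the 8 letters GAGGAAGT, or ACTTCCTC on the other strand, an ETS-type sequence known to be bound by PU.1, the product of Spi1. The sequences are from RefSeq on GRCm38.p6 and hold 300 bases around a gene start, 5′ to 3′ on the gene's strand, with the match in capitals. F13a1 is at chr13:37049164-37049463 on the minus strand and is 1 of 2 starts given for it, Mpo at chr11:87793534-87793833 on the plus strand, and Sult1a1, which rose, at chr7:126676369-126676668 on the minus strand.
F13a1: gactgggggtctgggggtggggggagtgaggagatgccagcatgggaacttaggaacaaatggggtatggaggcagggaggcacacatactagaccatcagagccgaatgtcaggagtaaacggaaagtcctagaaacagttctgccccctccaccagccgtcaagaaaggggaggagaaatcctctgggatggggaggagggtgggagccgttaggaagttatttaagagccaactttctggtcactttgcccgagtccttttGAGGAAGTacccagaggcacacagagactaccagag
Mpo: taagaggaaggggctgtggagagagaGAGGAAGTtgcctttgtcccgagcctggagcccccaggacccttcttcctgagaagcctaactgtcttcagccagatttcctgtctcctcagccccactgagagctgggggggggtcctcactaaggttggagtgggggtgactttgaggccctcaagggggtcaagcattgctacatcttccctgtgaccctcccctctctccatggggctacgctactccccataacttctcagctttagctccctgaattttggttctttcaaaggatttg
Sult1a1: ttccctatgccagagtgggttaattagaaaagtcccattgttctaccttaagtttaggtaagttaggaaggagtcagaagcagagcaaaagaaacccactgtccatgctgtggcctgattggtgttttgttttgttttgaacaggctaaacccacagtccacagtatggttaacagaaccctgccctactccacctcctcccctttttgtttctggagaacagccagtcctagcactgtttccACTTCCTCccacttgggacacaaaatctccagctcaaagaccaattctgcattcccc
On both strands, 3.69% of all genes with an entry hold these letters, and 3.84% of the tested genes with one. An entry exists for 79 of the 106 lower and 57 of the 76 higher genes, under 80% of each, so their shares were not compared.

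None of 10 tested erythroid, 9 megakaryocyte, 6 mast cell and basophil, 3 T cell and 6 stromal and endothelial genes passed the threshold, which 1.42% of all genes did, with medians of -0.01, 0.40, 0.19, 0.24 and 0.09. With the block 3 erythroid genes rose, namely Epor, the erythropoietin receptor, and the carbonic anhydrases Car1 and Car2, and Tfrc, the transferrin receptor, fell. The block also called 3 megakaryocyte genes higher, Pf4, Gp9 and Treml1, and 1 stromal gene, Col1a2. With it 3.27% of all tested genes were higher and 2.88% lower. Pf4, a platelet chemokine, was 10.91, 10.78 and 12.29 in NS-GFP3+ and 12.17, 12.01 and 13.11 in NS-GFP4+, overlapping through NS-GFP3+ replicate 3.

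Summed linear levels of whole marker lists were set beside the gene results. Over 15 myeloid genes the sum was 264620 to 332850 in NS-GFP3+ and 216480 to 232920 in NS-GFP4+, and over 13 lymphoid-primed genes 90792 to 119270 and 59017 to 72268. For 7 B cell genes it was 4708 to 5548 and 3894 to 4066. For 18 cyclin-dependent kinase inhibitor and quiescence genes it was 54735 to 59144 and 67535 to 73481. In these 4 lists the fractions did not overlap, whereas the sums of the HSC-enriched, erythroid, megakaryocyte, mast cell, T cell and stromal lists did. Sums of linear signal are weighted to the brightest members. Dntt in the lymphoid-primed list and Mpo in the myeloid list are such members, and their falls are given above. A separation of sums therefore does not show a change across a list. No marker is listed at 0. The part of a changed cell makeup in the gene results was not tested.

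Of 26 tested cell cycle genes, none passed with or without the block, where 1.42% of all tested genes passed and 6.16% with the block. At such shares a list this short can hold none. Differences lay between -0.11 and 0.22, and Mki67, the antigen of cycling cells, differed by 0.13 ± 0.11. Among 17 tested cyclin-dependent kinase inhibitor and quiescence genes Cdkn1c alone rose. The block added Egr1, an immediate early factor known from resting stem cells, at 1.08 ± 0.23 (adjusted p = 0.0568, with the block 0.000852), and Nr4a2, an orphan nuclear receptor, at 0.55 ± 0.16. Cdkn1a, the p21 inhibitor, differed by -0.31 ± 0.19 and Cdkn1b, the p27 inhibitor, by -0.06 ± 0.09.

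Gnl3, the nucleostemin gene that NS is read as here, was at 10.96, 10.72 and 10.42 in NS-GFP3+ and 10.36, 10.39 and 10.48 in NS-GFP4+. Its groups overlapped and its difference was -0.29 ± 0.13 (adjusted p = 0.438). Of 21 tested ribosome biogenesis and nucleostemin family genes, 20 had negative differences, but the median was -0.09. None passed with or without the block, where 1.42% of all tested genes passed and 6.16% with the block. The nucleolar proteins Ncl and Npm1 differed by -0.18 ± 0.10 and -0.07 ± 0.12. Of 13 DNA damage response genes none passed, with a median of 0.12.

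**Figure D3:**
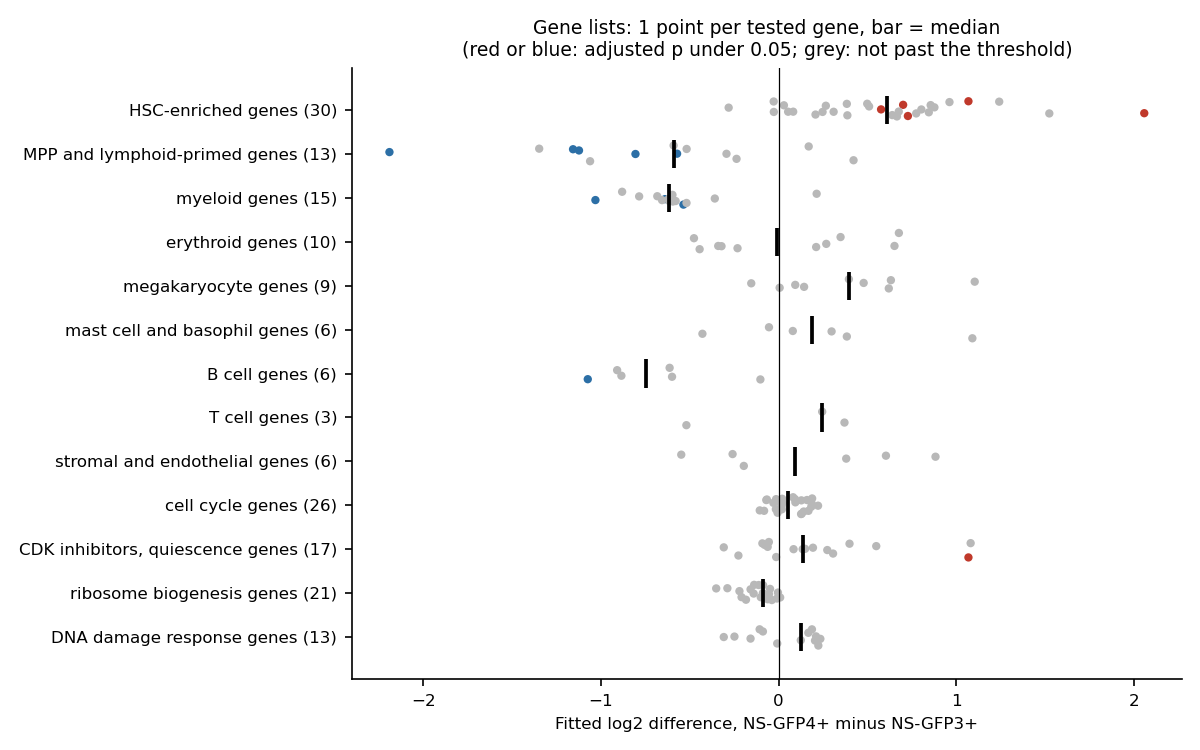
Fitted log2 difference of NS-GFP4+ minus NS-GFP3+ for the tested genes of 13 lists, 1 point per gene with the median as a bar and the number of tested genes in brackets. Coloured points passed the threshold. Medians are 0.61 for HSC-enriched genes, -0.59 for lymphoid-primed, -0.62 for myeloid and -0.75 for B cell genes.

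The remaining question is which of these changes belong to the last step and not to the whole scale. Most had the same direction before it. The first step, from NS-GFP1+ to NS-GFP2+, shares no sample with the last. Of the 223 probes, 209 (93.7%) had the same sign there, against 63.5% of all tested probes, and 38 passed at both steps, all with equal sign. The median of the 94 higher probes was 0.54 from NS-GFP1+ to NS-GFP2+, 0.37 from NS-GFP2+ to NS-GFP3+ and 0.84 at the last step, and that of the 129 lower ones -0.35, -0.28 and -0.78. The last values are those the probes were selected on, so the larger size there is not a result. By single steps, 87 probes (0.416%) passed at the first step, and 473 (2.26%) with the block. At the middle step 0 passed, 926 had an unadjusted p under 0.05 and the block gave 36 (0.172%).

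NS-GFP4+ as a fraction stood apart from the mean of the 3 others at 1984 probes (9.48%), 1011 higher (4.83%) and 973 lower (4.65%), and at 3554 (17%) with the block. This contrast does not separate a last step from a steady change. The contrast that does, the last step minus the mean of the earlier steps, passed at 1 probe (0.00478%), that of Clu, with 876 at an unadjusted p under 0.05. The block gave 9 (0.043%), all positive. Of these, 6 had also risen at the last step without the block, and the other 3 had the larger difference at the first step. Those 3 were Lef1 (-2.18, then 0.01 at the last step), Gimap4 (-0.79, then 0.64) and Vpreb1 (-2.19, then -0.60). The signed difference of the last step minus the first passed at 7 probes (0.0335%), with the block at 16 (0.0765%), all positive. Of the 7, 5 had the larger change at the first step, in the negative direction, and the other 2, at Clu and the dimmer Sult1a1 probe, had risen at the last. Minus the middle step it passed at 0 (727 unadjusted, with the block 0). The typical SE of the contrast with the earlier steps was 0.16, against 0.12 for the last step itself. Differences far above that SE did not pass, as at Lef1 (1.58 ± 0.23, adjusted p = 0.124) and Gm11559 (1.43 ± 0.22, adjusted p = 0.178). With 3 samples a fraction, the few calls therefore do not show that the steps were alike.

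Clu encodes clusterin, a secreted chaperone. Its values were 8.76, 8.81 and 8.75 in NS-GFP1+, 8.66, 8.42 and 8.61 in NS-GFP2+, 8.29, 8.48 and 8.43 in NS-GFP3+, and 9.50, 9.38 and 9.68 in NS-GFP4+. The NS-GFP4+ samples lay above all 9 others, and those of NS-GFP3+ were below all of NS-GFP1+. Clu rose 2.18-fold at the last step (adjusted p = 0.000984), and this step exceeded the mean earlier step by 1.31 ± 0.13 (adjusted p = 0.0164). That last call was kept without NS-GFP2+ replicate 1 or 2 or NS-GFP4+ replicate 2 or 3 and lost without any of the other 8 samples. It was also lost with no filter, on the E1A scale, from the per-array files and with replicates 1 and 2 alone. On the E1A scale the rise itself was 0.93 (adjusted p = 0.0691). The rule for a change at the last step alone also asked that the 95% interval of NS-GFP3+ minus NS-GFP1+ stay within 1.5-fold either way. For Clu it was -0.59 to -0.17 and just crossed that bound, so 0 probes met the rule.

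With the replicate block 2 probes (0.00956%) met it, those of Clu and Gm11559. In that fit Clu also differed between NS-GFP3+ and NS-GFP1+, by -0.38 (adjusted p = 0.0364). It thus fell before it rose and met the rule only because the fall stayed within the bound. Gm11559 ran from 7.65 to 8.25 over the 9 samples of the other fractions and stood at 9.25, 9.02 and 9.46 in NS-GFP4+, above them all. Its last step exceeded the mean earlier one by 1.43 ± 0.22, with an adjusted p of 0.178 and of 0.0145 with the block.

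**Figure D4:**
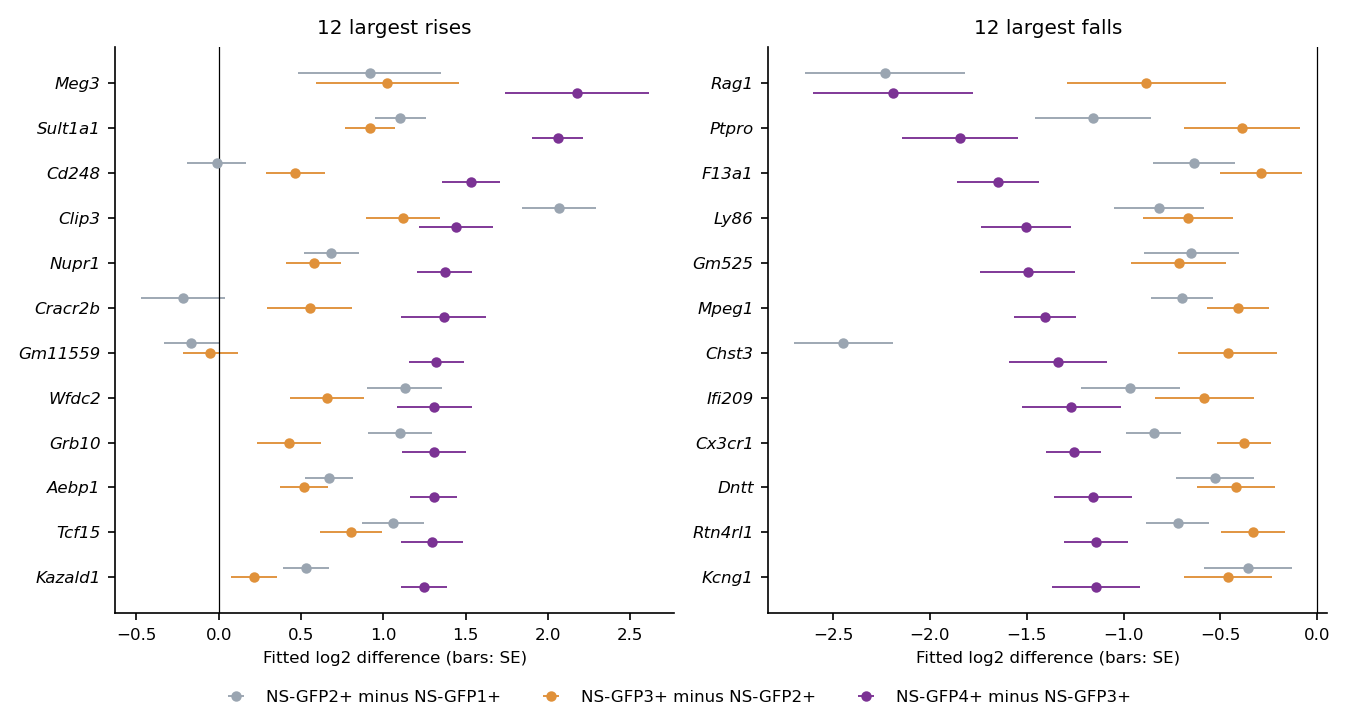
Fitted log2 differences of the 3 steps for the 12 largest rises and the 12 largest falls at the last step, with SE bars. Gm11559 lies near 0 at both earlier steps, whereas Chst3 and Clip3 have larger differences at the first step than at the last. The genes were selected on the last step.

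A looser view drops the test of the difference between steps. Of the 223 probes, 44 had an NS-GFP3+ minus NS-GFP1+ interval within 1.5-fold, a bound met by 72.7% of all tested probes, and 12 of them were higher and 32 lower in NS-GFP4+. The genes given here were singled out after their values were seen. Spi1 ran from 8.14 to 8.42 over the 9 samples of the first 3 fractions and lay below that in all NS-GFP4+ samples, with an earlier interval of -0.32 to 0.09. Btla, an inhibitory lymphocyte receptor, fell by 0.85 from 8.13 to 8.84 over the first 9 samples to 7.31, 7.57 and 7.41.

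Cxcr2, a neutrophil chemokine receptor, fell by 0.78 from levels near the sample median, and the receptor Pdgfrb fell by 0.63. Abcc8, the sulfonylurea receptor, rose by 0.71 from 5.90 to 6.49 over the first 9 samples to 6.96, 6.86 and 6.96. Limk2, a kinase of the actin cytoskeleton, rose by 0.51 after an earlier difference of -0.33. For none of these 6 genes did the last step differ from the mean earlier one past the threshold, with adjusted p of 0.279 for Limk2, 0.305 for Abcc8, 0.333 for Pdgfrb, 0.606 for Cxcr2, 0.673 for Btla and 0.683 for Spi1.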

How the data were processed

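Total RNA from sorted LSK cells of 4 NS-GFP fractions, 3 samples each, was run on 1-colour Agilent arrays, per the labels' protocols. The authors deposited a table of log2 values, 1 column per sample, whose columns share nearly the same quartiles and rank probes as the per-array intensity files deposited by the authors do (Spearman 1 for 11 samples). How the table was normalized and its background treated is not given in the sources used here. The per-array file of NS-GFP3+ replicate 3 equals the NS-GFP2+ replicate 3 file in 42071 of 42071 values, but the table columns are equal at 70, so the table was used and the files gave an alternative with 11 arrays. The number of arrays limits the precision.

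The 49 control spots were left out. Probes were named from the platform annotation, updated by gene ID (24198 probes) or accession (22) to RefSeq GRCm38.p6. Of 42022 probes, 24406 have 1 symbol, none has several, and 17616 are unnamed here. A gene is represented by its tested probe with the highest mean value. In limma 3.58.1 (R 4.3.3), lmFit and eBayes fitted 4 fraction means to all 12 columns, and p-values were adjusted by Benjamini-Hochberg over all 20920 tested probes, with a threshold of 0.05. Contrasts were each step and the last step minus earlier ones. The script was tested on simulated data.

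The members, gene lists and alternatives were chosen with earlier results of these data known. Named are the 12 largest rises and falls past the threshold with equal sign in 3 of 3 pairs, list members past the threshold, up to 5 genes a direction of the last step alone, and genes marked as singled out. Replicate numbers come from the labels. Deviations of same-numbered NS-GFP3+ and NS-GFP4+ samples correlated at 0.297, 0.505 and 0.686. Values with the block therefore stand beside those of the main fit, which did not block on the numbers. For replicate 1 of NS-GFP1+ and NS-GFP3+ the correlation was 0.0859. Differently numbered NS-GFP3+ and NS-GFP4+ samples reached 0.371, so replicates 1 and 2 are not told apart clearly by number. Alternatives were the block, the filter, the scaling, a floor, array weights, variance model, source of values and leaving out each sample. Plots were drawn with matplotlib 3.10.9.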

Additional observations from a re-analysis of the deposited data

Results flagged for a closer look

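For a few genes the last step differed from earlier steps in a test of the difference itself (limma, adjusted p under 0.05). Clu exceeded the mean earlier step by 1.31 on the log2 scale and the first step by 1.34 (adjusted p = 0.0219), higher in 3 of 3 NS-GFP4+ samples after a difference of -0.21 at the first step. The dimmer Sult1a1 probe rose by 0.65 at the first step and 2.03 at the last, a difference of 1.38 ± 0.16 (adjusted p = 0.024). At the brighter Sult1a1 probe the steps were 1.10 and 2.06, and their difference of 0.96 did not pass (adjusted p = 0.642). For the other 5 genes the larger difference was at the first step. Lef1, a transcription factor of lymphocytes, differed by -2.18 and then by 0.01, which makes 2.19 between the steps. Vpreb3, a pre-B cell gene, differed by -2.72 and then by -0.90, a difference of 1.81. Prkcb, a protein kinase C, went from -0.95 to 0.43, a difference of 1.38, Pde2a, a phosphodiesterase, from -1.08 to -0.08, a difference of 1.00, and Chchd10, a mitochondrial protein, from -0.72 to 0.19, a difference of 0.91. Of these 5, Vpreb3 was also past the threshold at the last step.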

How the results depend on the processing

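For NS-GFP4+ against NS-GFP3+ (223 probes), the count was 1057 with the replicate block, 19 with only the 2 fractions in the fit, 44 with no filter on dim probes, 128 with probes above the median in all 12 samples, 63 at 2-fold or more, 359 from the per-array files on 11 arrays (170 shared), 1744 with array weights, whose fit stopped before it converged, and 585 with replicates 1 and 2 only. It stayed within 1.5 times with E1A scaling (149), 16 added to the linear value (245) and eBayes with trend and robust (234). With 75th percentile scaling it was 225, but the samples already shared that percentile, so this alternative could hardly move the count. Leaving out 1 sample gave 43 to 349. The last step minus the mean earlier step (1 probe) gave 9 with the replicate block, 3 with E1A scaling, 2 with 16 added, 235 with array weights, 4 with replicates 1 and 2 only, and 0 to 2 without 1 sample, and Clu was not called with E1A scaling, replicates 1 and 2 only, no filter or the per-array files. The last step minus the first (7) gave 16 with the block, 1 with no filter, 2 with E1A scaling, 80 with array weights, 3 with replicates 1 and 2 only, and 0 to 8 without 1 sample. The last step minus the middle (0) gave 2 with E1A scaling, 3 with array weights, 2 from the per-array files, 2 with replicates 1 and 2 only, and 0 to 2 without 1 sample. NS-GFP4+ against the 3 others (1984) gave 3554 with the block, 833 with E1A scaling, 4059 with array weights, 450 at 2-fold or more, and 1245 to 2251 without 1 sample, falling most without NS-GFP4+ replicates 1 (1295), 2 (1267) and 3 (1245). The last step alone (0) gave 2 with the block, 1 with no filter, 1 with the stricter filter, 1 with 16 added, 120 with array weights, and 0 to 1 without 1 sample. The causes of these shifts were not tested. Over 36 named genes and their alternatives, 595 of 805 fits kept the call, 210 lost it and 0 reversed. Sult1a1, Cd248, Aebp1 and F13a1 kept it in all alternatives run, and Chst3, Kcng1, Hlf, Mpo, Meg3, Mn1, Cracr2b and Ifi209 lost it in 12 to 15. List medians ran from 0.39 to 0.71 for HSC-enriched, -0.78 to -0.52 for lymphoid-primed, -0.81 to -0.44 for myeloid and -0.94 to -0.58 for B cell genes. Signal over background is unknown, which limits dim probes most.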

Other observations

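The genes below were singled out after their values were seen, and no test of the groups was made. Among receptors and adhesion molecules of white blood cells, the integrin subunits Itgal (-0.94 and -0.83 at 2 probes), Itgax (-0.98) and Itgam (-0.55, but 0.28 at its brighter probe, adjusted p = 0.699) were lower in NS-GFP4+ than in NS-GFP3+ past the threshold, as were the chemokine receptors Ccr7 (-0.96) and Cxcr2 (-0.78) and the leukotriene receptor Ltb4r1 (-0.80). T and NK cell genes in the same direction were Icos (-0.98 and -0.91 at 2 probes), Cd7 (-0.90) and Zap70 (-0.80), none of which passed the filter through NS-GFP4+. In the T cell list 2 of 3 tested genes had positive differences, with a median of 0.24 and none past the threshold. The signalling adaptor Tyrobp differed by -0.85. Ly6d, a marker of early B lineage cells, differed by -1.12. In the other direction the Bex family split, with Bex4 (1.19) and Bex1 (0.83 and 0.79 at 2 probes) higher and Bex6 lower (-0.74). Tgm2, a transglutaminase, was higher by 1.38 at its dimmer probe, while its brighter one did not pass (1.43, adjusted p = 0.0815), and Timp3, an inhibitor of matrix proteases, by 1.23. The largest rise of all, 2.67 ± 0.49, was at a probe without a gene name.

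Imprinted genes were looked at after Meg3 and Grb10 had been seen among the rises, so no count over them is given. Besides these and Cdkn1c, Dlk1, a growth regulator from the same locus as Meg3, rose by 1.00 (adjusted p = 0.0343), and Ndn differed by 0.85 without passing (adjusted p = 0.575). None of the other imprinted genes tested passed. Plagl1 differed by 0.36, Sgce by 0.32, Igf2r by 0.23, Gatm by 0.20, Peg12 by 0.07 and Impact by 0.06. Gnas and Kcnq1ot1 differed by -0.04 and -0.09.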
